A study of Mus musculus with 335 samples.

Results

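The 76 genes described here are those named as cytosolic ribosomal protein genes, of 13448 gene entries with a symbol. Of them, 75 are annotated as protein coding, and Rps4l as a processed pseudogene. They were chosen by name alone: Rpl or Rps, a number and an optional letter or l suffix, plus Rplp0, Rplp1, Rplp2 and Rpsa, without names marked as pseudogenes and without the Rps6k kinases. Of the 76, 29 belong to the small subunit (Rps) and 47 to the large subunit (Rpl), and all had over 100 estimated counts in the 4 sorted groups together. Further entries that encode ribosomal components or close paralogues under other names (Rps3a1, Rpl22l1, Rpl7l1, Fau and Rack1) are given separately. Rps7, Rps12 and Rps26 were not analysed here.

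The ribosome has a small subunit that reads the messenger RNA and a large subunit that joins the amino acids, and most of the proteins are needed at 1 copy per ribosome. The messages of these genes mostly start with a run of pyrimidines, the 5′ terminal oligopyrimidine (TOP) motif, through which the growth kinase mTOR and the protein Larp1 control their translation together. In haematopoiesis the family is known from Diamond-Blackfan anaemia, in which the loss of 1 copy of a human ribosomal protein gene such as RPS19 impairs red cell formation. Adult mouse haematopoietic stem cells (HSCs) are known for a low and closely held rate of protein synthesis. RNA levels, as measured here, are not that rate.

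Single cells were sorted from collagenase-dissociated aorta-gonad-mesonephros (AGM) regions of wild-type mouse embryos at E11.5 and sequenced by Smart-seq2, which reads full-length complementary DNA without molecular identifiers. The 65 HSC cells were sorted as EPCR+CD45+, a fraction that contains the HSCs but is not made of HSCs alone. The 93 Dorsal and 89 Ventral cells were Ngfr+Pdgfrb- cells from either side of the aorta, and the 88 Mesenchymal cells were Pdgfrb+ cells of the ventral side. Each group was 1 sequencing pool with no animal named, so each counts as 1 sample, no test was possible, and a difference between groups and one between pools cannot be told apart. The 96 index pairs of the plates recurred between pools, and no pair recurred within a pool. Chosen markers followed the labels. Gfi1, a haematopoietic gene not used for sorting, was at 42.6 counts per 1000000 (CPM) in HSC and at 0 in the other pools. Ngfr was at 281 and 90.9 CPM in Dorsal and Ventral, and Pdgfrb at 127 CPM in Mesenchymal. All 8 haematopoietic markers listed were at least 2-fold higher in HSC than in the mean of the other pools (background 10.4%). Of the 7 measured between Ventral and Mesenchymal, 6 were higher in Ventral (background 54.4%). Macrophage markers were present in 21 Dorsal and 14 Ventral cells, counted as cells with at least 5 counts of 3 or more markers. HSC and Mesenchymal cells were not counted in this way. Cell totals ran from 126979 to 20481041 counts, and the deepest cell, Ventral 41 (cells are numbered within their group), held 18.5% of its pool.

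Sequence at the listed start sites holds a pyrimidine run in some of these genes and not in others. The windows below run from 10 bases before to 20 bases from a RefSeq start site (GRCm38.p6, 5′ to 3′ on the gene's strand), for those of the 8 highest and 6 lowest genes of the HSC comparison that have an entry. Capitals mark a run of C followed by at least 4 C or T letters that starts within 5 bases of the start site. Where a gene has several listed starts, the one with a run, or else the first, is shown. For Rpl22 the window shown lies upstream of the annotated gene, which begins at chr4:152325742. The window of its other listed start, chr4:152325716-152325745, holds no run either.
Rpl36a: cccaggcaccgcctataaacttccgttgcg
Rpl26: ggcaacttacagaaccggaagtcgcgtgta
Rpl39: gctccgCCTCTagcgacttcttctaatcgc
Rps24: gctggggtCCTTCCTTgcgcgttgatatga
Rpl22: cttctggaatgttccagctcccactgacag
Rpl35a: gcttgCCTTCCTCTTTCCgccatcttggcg
Rpl10: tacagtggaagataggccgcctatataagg
Rps9: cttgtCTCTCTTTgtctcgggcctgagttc
Rps2: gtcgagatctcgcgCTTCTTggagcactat
Rpl7a: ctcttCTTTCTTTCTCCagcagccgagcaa
Rpl5: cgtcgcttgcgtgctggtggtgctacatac
The windows lie at chrX:134585644-134585673 (plus strand) for Rpl36a, chr11:68901556-68901585 (plus) for Rpl26, chrX:37085203-37085232 (minus) for Rpl39, chr14:24490668-24490697 (plus) for Rps24, chr4:152324426-152324455 (plus) for Rpl22 and chr16:33056472-33056501 (plus) for Rpl35a. Those of the low end lie at chrX:74270806-74270835 (plus) for Rpl10, chr7:3704031-3704060 (plus) for Rps9, chr17:24720053-24720082 (plus) for Rps2, chr2:26910797-26910826 (plus) for Rpl7a and chr5:107900518-107900547 (plus) for Rpl5. Such a run was found in 27 of 55 ribosomal protein genes with a listed promoter (49.1%), against 21.2% of all 27025 genes listed, 24.6% of 69 mitochondrial ribosomal protein genes and 21.9% of 32 proteasome subunit genes. Only the gene's own strand was searched, and no run means only that these letters are not in this window. Runs stood at both ends of the HSC comparison. The 27 genes with a run had a median log2 fold of 0.69 in HSC over the other 3 pools, and the 28 without had 0.67.

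The ribosomal protein genes took a larger part of the messenger RNA of HSC cells than of the other cells. Summed over the 76 genes they held 3.64% to 16.8% of a cell's counts in HSC (median 9.12%, n = 65), 2.23% to 8.08% in Dorsal (6.26%, n = 93), 3.01% to 11.3% in Ventral (6.07%, n = 89) and 3.06% to 8.51% in Mesenchymal (5.24%, n = 88). The median HSC cell stood 1.46 times as high as the median Dorsal cell and 1.74 times as high as the median Mesenchymal cell, with Ventral between them. The lower quartile of HSC cells, 7.94%, lay above the upper quartiles of Dorsal (6.96%), Ventral (7.21%) and Mesenchymal (5.88%) cells, while the full ranges overlapped. Of the 65 HSC cells, 63 were above the median of each other group, 47 above the highest Dorsal cell, 42 above the highest Mesenchymal cell and 7 above the highest Ventral cell.

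**Figure D1:**
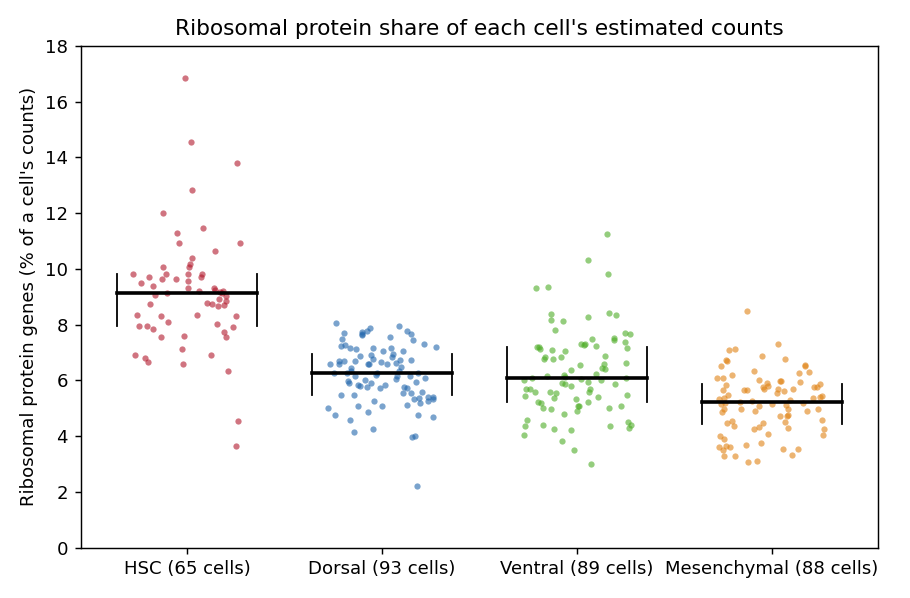
Percent of each cell's estimated counts held by the 76 ribosomal protein genes (vertical axis), by sorted group. Each point is a cell, the thick line is the median over cells and the thin bars at its ends span the quartiles. The HSC median of 9.12% stands above those of Dorsal (6.26%), Ventral (6.07%) and Mesenchymal (5.24%), and the groups overlap.

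The balance between the subunits varied less from cell to cell than the total, which is partly built in. The small subunit part is taken within the ribosomal protein counts, so the rest of a cell's total cancels. Whether the balance is held was not tested. Small subunit genes held a median of 40.9% of the ribosomal protein counts of an HSC cell, 40.7% in Dorsal, 40.2% in Ventral and 40.5% in Mesenchymal cells. Over all cells this share ran from 35.6% to 46.6%, whereas the ribosomal protein share itself differed up to 4.63 times between cells of 1 group. That factor rests on HSC 4, a cell with 62.2% of its counts on Dock10 and Cep97; with these 2 genes left out of the totals, HSC cells ran from 6.63% to 17.6%.

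Summed over a pool, the 76 genes held 10.3% of HSC counts, 6.31% of Dorsal, 7.21% of Ventral and 5.81% of Mesenchymal counts; the exact binomial 95% limits, which cover counting error only, were 10.285% to 10.298% in HSC and as narrow in the other pools. These sums weight deep cells. The deepest HSC cell (HSC 23) was also the cell with the highest ribosomal protein share, 16.8%, and held 14.1% of the pool's ribosomal protein counts. Ventral 41 held 23.9% of those of its pool. Without the deepest cell of each group the shares were 9.68% in HSC, against 6.27% in Dorsal, 6.74% in Ventral and 5.77% in Mesenchymal.

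Other measures of a cell varied with the share. The ribosomal protein share correlated over cells with the cell's total count (Spearman rho 0.56 in HSC, against 0.18 in Dorsal, 0.41 in Ventral and 0.63 in Mesenchymal). It ran against the share of Dock10 and Cep97, 2 genes that took, in the median cell, 15.4% in HSC, 7.68% in Dorsal, 7.55% in Ventral, 14.2% in Mesenchymal and up to 62.2% in 1 HSC cell (rho -0.47, -0.38, -0.45 and -0.64 in the same order). Both shares are parts of the same total, so some of this opposition is built in. The cells lowest in ribosomal protein share in HSC (HSC 4), Dorsal (Dorsal 22) and Ventral (Ventral 34) were the cells highest in Dock10 and Cep97 of their groups. With those 2 genes left out of the totals, HSC 4 changed to 9.62%, against 3.64% with them. The medians were then 10.9% in HSC, against 6.96% in Dorsal, 6.62% in Ventral and 6.07% in Mesenchymal, and rho with the total was 0.07, 0.13, 0.32 and 0.55 in that order. Any part of Dock10 and Cep97 in the remaining differences was not tested. Among cells with totals from 500000 to 1000000 counts, the median was 8.72% in HSC (n = 23), 6.27% in Dorsal (n = 35), 6.55% in Ventral (n = 33) and 5.48% in Mesenchymal (n = 30), a range of cells chosen after seeing the data.

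**Figure D2:**
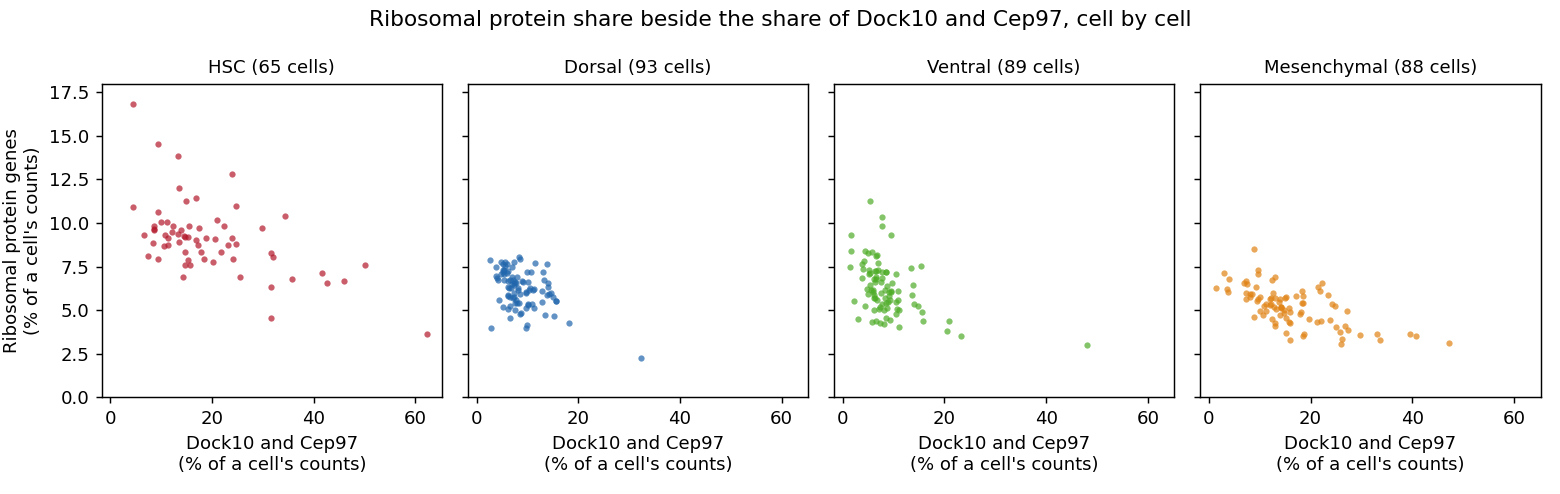
Ribosomal protein share (vertical axis, % of a cell's counts) beside the share of Dock10 and Cep97 (horizontal axis, % of a cell's counts), 1 panel per group and 1 point per cell. Cells with a high share of the 2 genes lie low on the vertical axis, with rho of -0.47 in HSC, against -0.38 in Dorsal, -0.45 in Ventral and -0.64 in Mesenchymal.

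Gene by gene, the higher level in HSC was spread over the whole family and not carried by a few members. HSC was the highest of the 4 pools for 73 of 76 genes, against 25% of all 13446 genes measured. The exceptions were Rpl10 and Rps9, highest in Ventral, and Rps4l, highest in Mesenchymal. The median log2 fold of HSC over the mean of the other 3 pools, on the scale of CPM + 1 used for every log2 fold here, was 0.69 (a fold of 1.61), against -0.27 for all genes. All 76 lay above 0, against 38% of all genes, and 75 stayed above 0 in the odd-index cells, in the even-index cells and with every cell weighted equally; Rpl10 did not. Set against each pool alone, HSC was higher for 76 of 76 genes over Dorsal (background 39.1%), 74 over Ventral (42.3%) and 75 over Mesenchymal (46.4%), with median log2 folds of 0.76, 0.54 and 0.80.

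The difference was moderate for most genes. Only 3 of the 76 were at least 2-fold higher in HSC and 0 at least 2-fold lower, against 10.4% and 25.3% of all genes, while 48 were at least 1.5-fold higher, against 17.6%. The quartiles of the family lay at log2 folds of 0.53 and 0.86, and 0 were at least 1.5-fold lower, against 37.3%. The count at 2-fold sits on a steep slope. It was 8 without Ventral 41, 13 with Dock10 and Cep97 left out of totals and 1 among cells with totals from 500000 to 1000000, where the median was 0.54.

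**Figure D3:**
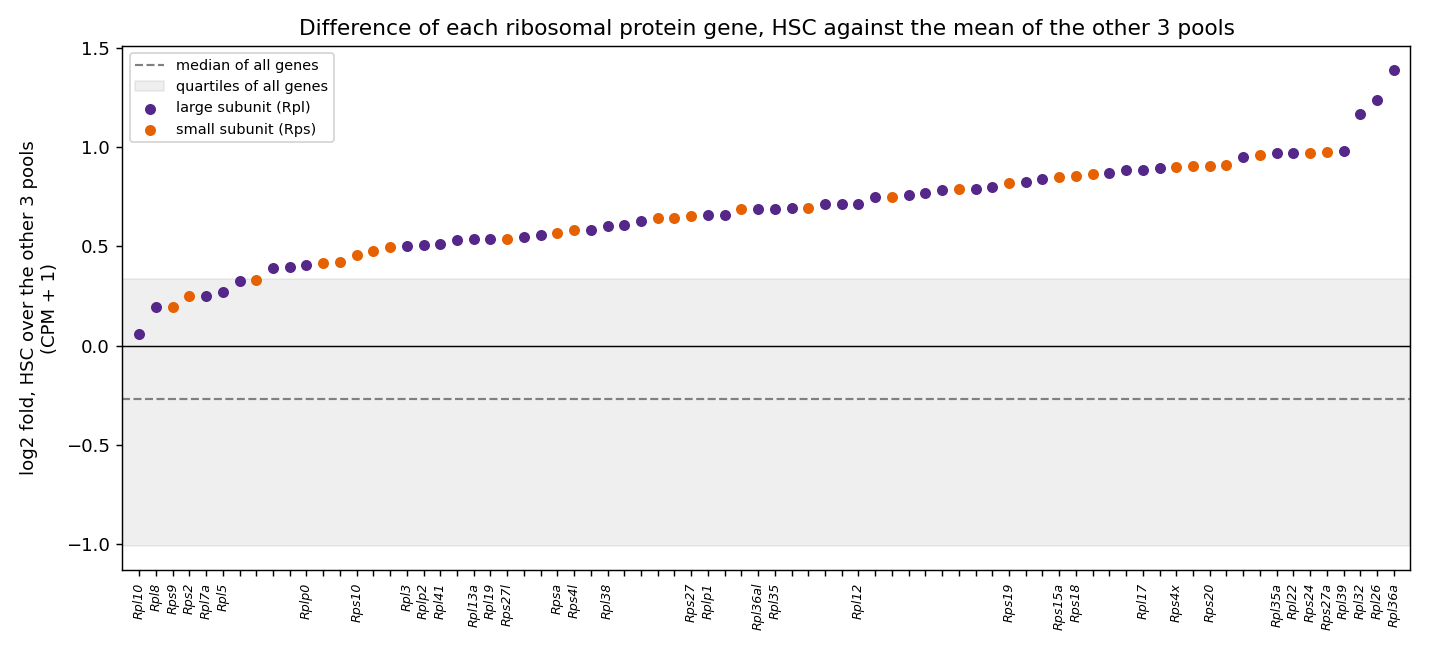
Log2 fold of HSC over the mean of the other 3 pools (vertical axis, CPM + 1) for each ribosomal protein gene, ordered from low to high and coloured by subunit, with names for genes described in the text. The dashed line is the median of all genes (-0.27), the grey band their quartiles (-1.01 to 0.34). All 76 genes lie above 0, from Rpl10 at 0.06 to Rpl36a at 1.39. The small subunit genes lie between 0.20 and 0.98, and the genes at both extremes are of the large subunit.

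Large subunit genes made up the top of the order. Rpl36a (chromosome X, 134585654 to 134588062, plus strand, GRCm38), whose protein sits near the exit site for transfer RNA, stood at 1129.6 CPM in HSC, against 409 in Dorsal, 499.9 in Ventral and 384 in Mesenchymal, a log2 fold of 1.39. The median HSC cell had 882 CPM of it, above the highest Dorsal cell (734), Ventral cell (831) and Mesenchymal cell (697). Rpl26 (chromosome 11, 68901583 to 68906989, plus strand), at the opening of the tunnel through which the new protein leaves, stood at 1491 CPM in HSC, against 618 in Dorsal, 636 in Ventral and 640.2 in Mesenchymal (1.24). The other 3 pools were close to each other for this gene, and HSC stood apart. Rpl32 (chromosome 6, 115805505 to 115808747, minus strand) stood at 1838 CPM in HSC, against 843 in Dorsal, 893 in Ventral and 721 in Mesenchymal (1.16). Without the deepest cell of each pool these 3 genes gave 1.29, 1.13 and 1.06.

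Just under them stood Rpl39, which lines the exit tunnel (0.98), Rps27a, made as a fusion with ubiquitin (0.98), Rps24 (0.97), Rpl22 (0.97) and Rpl35a (0.97). Rps24 and Rpl35a are Diamond-Blackfan anaemia genes in humans, as is Rpl5, which stood at the low end of the order. The anaemia genes were not examined as a set. Rpl22 is needed for the development of alpha-beta T cells in mice. Rps19, the gene most often mutated in that anaemia, had 2107 CPM in HSC, against 984 in Dorsal, 1475 in Ventral and 1121 in Mesenchymal (0.82). Its place rested on single deep cells. The value was 1.02 without Ventral 41, which held 44.1% of the Ventral Rps19 counts, and 0.69 without HSC 23.

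At the low end, Rpl10 stood nearly level over the pools. This protein joins the large subunit late, in the cytoplasm, beside the catalytic centre. It had 908 CPM in HSC, against 859.9 in Dorsal, 915 in Ventral and 839.8 in Mesenchymal, a log2 fold of 0.06 that was -0.05 with cells weighted equally. Its part of the ribosomal protein counts was therefore lower in HSC, at 0.88%, against 1.36% in Dorsal, 1.27% in Ventral and 1.45% in Mesenchymal. Rpl8 (0.19), Rps9 (0.20), Rps2 (0.25), Rpl7a (0.25) and Rpl5 (0.27) followed. Rps9, near the entry channel of the messenger RNA, stood at 1108 CPM in HSC, against 812 in Dorsal, 1210.5 in Ventral and 878 in Mesenchymal. The genes on chromosome X lay at both ends: Rpl10 at 0.06, Rps4x at 0.90, Rpl39 at 0.98 and Rpl36a at 1.39.

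**Figure D4:**
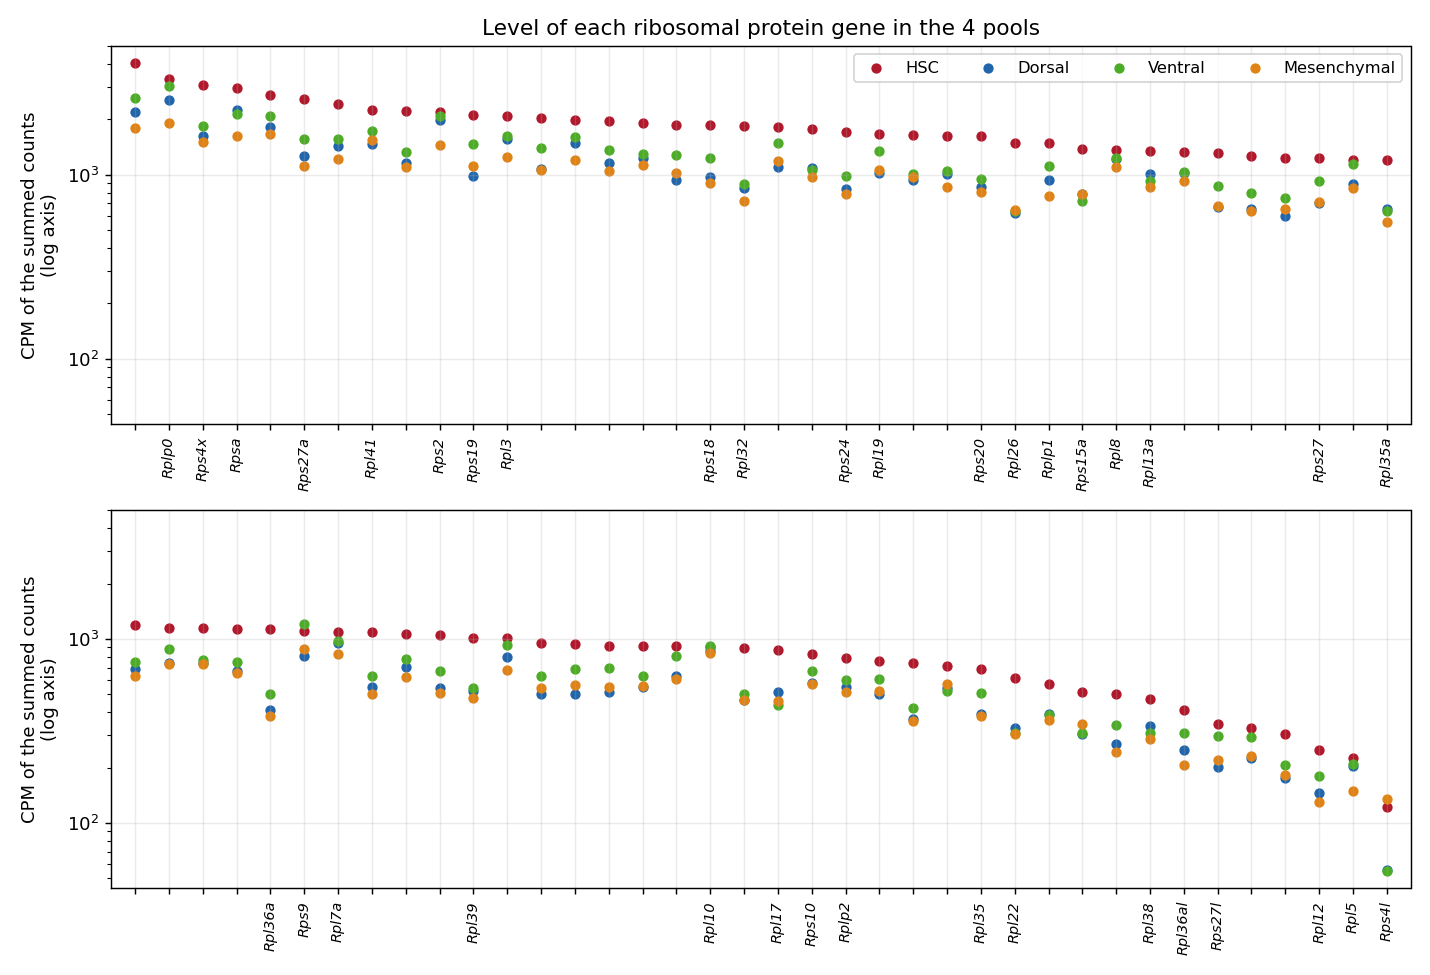
CPM of the summed counts of each ribosomal protein gene in the 4 pools (vertical log axis), ordered by the HSC level in 2 rows of 38 genes, with names for genes described in the text. HSC is the highest point for 73 of 76 genes. Levels are not divided by length, so heights compare pools within a gene and not genes with each other.

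Over the 76 genes the HSC log2 fold had a Spearman rho of -0.15 with transcript length, -0.07 with the share of 31-base stretches found in other annotated genes, 0.07 with the level per kilobase and -0.36 with GC content. The second property matters for this family, since 289 annotated genes carry Rpl or Rps names marked -ps, as for pseudogenes. Copies under other names are outside that count. In 52 of 76 genes over 50% of the stretches recurred elsewhere, up to 99.0% in Rpl35, so single levels are uncertain where the authors' counting could divide reads among copies. The 6 genes with under 15% of such stretches had a median of 0.75 in HSC over the other pools, from Rpl8 at 0.19 to Rpl22 at 0.97.

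Dorsal and Ventral cells differed little in these genes. The median log2 fold of Dorsal over Ventral was -0.20, against 0.14 for all genes, with 11 of 76 above 0 (background 57.8%). Of the 76, 0 were at least 2-fold higher and 0 lower, against 10.1% and 8.30% of all genes, and 0 passed 1.5-fold higher or lower, against 25.2% and 16.6%. The deepest Ventral cell weighed on that median, which was -0.09 without Ventral 41 and -0.01 with cells weighted equally. The median of all genes was 0.01 and -0.02 in these settings, so with equal weights the family and all genes were nearly level. Rps19 had 984 CPM in Dorsal and 1475 in Ventral, the lowest log2 fold of the 76 (-0.58), but Ventral 41 held 44.1% of the pool's Rps19 counts, the median cells had 974 CPM in Dorsal and 936 in Ventral, and the value without that cell was -0.04. Rps9 (-0.57) and Rps27l (-0.55), the paralogue of Rps27, were next, at -0.32 each without the deepest cells. Rpl17 (0.23) and Rpl38 (0.12) were the highest.

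Ventral stood slightly above Mesenchymal. The median log2 fold of Ventral over Mesenchymal was 0.30, against 0.09 for all genes, and 70 of 76 lay above 0 (background 54.4%). It was 0.15 without Ventral 41, where that of all genes was 0.17. Of the 76, 0 were at least 2-fold higher and 1 lower, against 17.1% and 12.9% of all genes. The genes of the stalk, the flexible arm that calls elongation factors to the ribosome, lay on both sides of that median. Rplp0, its base, had 3043 CPM in Ventral and 1906 in Mesenchymal (0.67, and 0.57 without the deepest cells), the only gene at least 1.5-fold higher (background 28.7%); Rps4l was the only one at least 1.5-fold lower (22.6%). Rplp1 stood at 0.55, Rpl12 at 0.47 and Rplp2 at 0.21. In the order of pools, Mesenchymal was the lowest for 52 of 76 genes (background 27.4%) and Dorsal for 20 (12.6%).

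Rps4l stood apart from the family in level and spread, and in the order of pools by summed counts. It is a copy of Rps4x on chromosome 6 (148354656 to 148355598, plus strand), annotated in GENCODE M21 as a transcribed processed pseudogene. Of its 31-base stretches, 30.8% recur in other annotated genes, and Rps4l-ps alone shares 30.8%. It stood at 122 CPM in HSC, against 55.7 in Dorsal, 54.8 in Ventral and 134 in Mesenchymal, and at -1.28 for Ventral over Mesenchymal. That value was -0.99 without Ventral 41, -1.02 without Mesenchymal 22 and -0.73 without the deepest cell of each pool. Mesenchymal 22 held 24.2% of its pool's Rps4l counts, and Ventral 8 held 37.8% in Ventral. The median cells had 95.3 CPM in HSC, against 43.2 in Dorsal, 50 in Ventral and 69.4 in Mesenchymal. Its spread over cells was wide, from 0 to 461 CPM in HSC, against 180.1 in Dorsal, 265 in Ventral and 380.0 in Mesenchymal. After thinning every cell to 310000 counts, at least 5 counts were found in 85.9% of HSC, 82.6% of Dorsal, 78.8% of Ventral and 88.4% of Mesenchymal cells, against 90.8%, 91.4%, 84.3% and 90.9% unthinned, and thinned intervals of the 4 groups overlapped. The parent gene Rps4x had 3088 CPM in HSC, against 1629 in Dorsal, 1836 in Ventral and 1503 in Mesenchymal.

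The other paralogue pairs went higher together. Rpl36a stood above Rpl36al in every pool, and Rpl36al held 36.3% of the Rpl36a level in HSC, against 61% in Dorsal, 61.6% in Ventral and 53.6% in Mesenchymal. Rps27l held 28.2% of Rps27 in HSC, against 28.8% in Dorsal, 31.7% in Ventral and 30.6% in Mesenchymal, a nearly constant part. Rpl22l1, which can take the place of Rpl22 in mouse ribosomes, had 563 CPM in HSC, against 228 in Dorsal, 308 in Ventral and 229 in Mesenchymal (1.14 for HSC over the others), beside 0.97 for Rpl22. These ratios are of CPM and are not divided by length. Of the remaining entries outside the name rule, Rps3a1 and Rack1 stood at 0.75 in HSC over the others, Fau at 0.32 and Rpl7l1 at 0.11.

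Per kilobase of transcript, the levels of single genes spanned a wide range for proteins used in about equal numbers. Among the highest was Rpl41, the smallest protein of the ribosome, with 4418 CPM per kilobase in HSC, against 2888 in Dorsal, 3380.0 in Ventral and 3032 in Mesenchymal. Rps27, Rps27a and Rps18 were also near the top. The lowest by the mean of the 4 pools was Rpl5, which carries 5S ribosomal RNA and binds Mdm2, with 111 in HSC, against 99.8 in Dorsal, 103 in Ventral and 72.7 in Mesenchymal. Rps4l was lower still in Dorsal (70.6) and Ventral (69.5), but not in HSC (155) or Mesenchymal (170.3). Rpl12, Rps15a, Rpl22 and Rps20 came next by the mean. These low ranks depend on the annotation: the transcripts used for Rps15a (5130 bases), Rps20 (3706), Rpl22 (2048) and Rpl5 (2045) are long beside the family's median of 737.5, and 94.8% of the stretches of Rpl5 recur in other genes.

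Within each group the genes moved together from cell to cell. The median Spearman rho over pairs of ribosomal protein genes was 0.40 in HSC (65 cells), 0.41 in Dorsal (93), 0.54 in Ventral (89) and 0.44 in Mesenchymal (88). Pairs of mitochondrial ribosomal protein genes gave 0.09, 0.06, 0.08 and 0.06, proteasome subunits 0.14, 0.13, 0.12 and 0.14, and a list of elongation factors and other TOP messages 0.21, 0.17, 0.27 and 0.17 in that order. Since low counts weaken correlations, the 38 ribosomal protein genes between the quartiles of the family's levels were set beside all other genes in the same range of CPM. They gave 0.44 in HSC, against 0.46 in Dorsal, 0.60 in Ventral and 0.47 in Mesenchymal, against 0.10, 0.16, 0.12 and 0.09 for 38, 100, 98 and 111 other genes. Cells of a group share a pool, and each cell's values share its total, so these are descriptions.

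**Figure D5:**
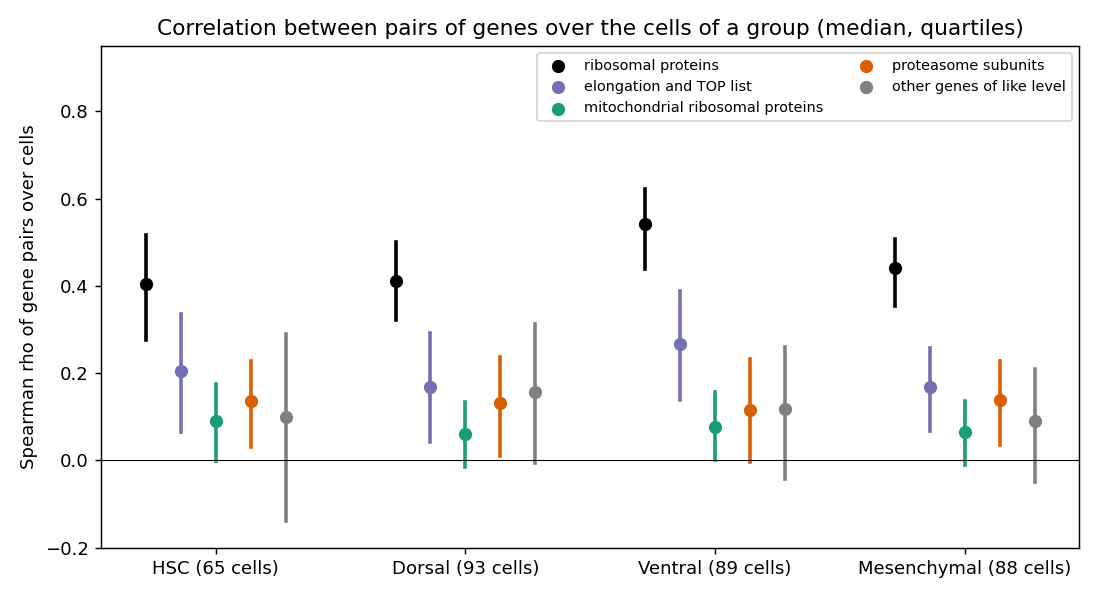
Spearman rho of gene pairs over the cells of each group (vertical axis), as median (point) and quartiles (bar), for the ribosomal protein genes, 3 other gene lists and other genes in the middle range of the family's CPM. The ribosomal protein genes have medians of 0.40 in HSC, against 0.41 in Dorsal, 0.54 in Ventral and 0.44 in Mesenchymal, above every other set drawn.

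The genes most tied to the rest, by the median rho with the other 75 averaged over groups, were Rpl32 (0.54), Rps10 (0.54), Rpl19 (0.53), Rpl39 (0.53) and Rplp1 (0.53). The least tied were Rps4l (0.07), Rpl38 (0.18), Rpl5 (0.26), Rpl13a (0.31) and Rpl12 (0.32). Rpl38, whose loss in mice disturbs the translation of Hox messages, had 0.12 in HSC, against 0.30 in Dorsal, 0.27 in Ventral and 0.03 in Mesenchymal. The closest pair was Rpl3 and Rplp0, with 0.72 in HSC, against 0.65 in Dorsal, 0.74 in Ventral and 0.69 in Mesenchymal. The interquartile ratio of a typical gene over cells was 1.41 in HSC, against 1.42 in Dorsal, 1.53 in Ventral and 1.55 in Mesenchymal, and Rps4l had the widest in each group.

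Other lists of translation genes had lower medians than the ribosomal proteins in the HSC comparison, most of them above the median of all genes. The 17 measured elongation factors and other TOP messages had a median log2 fold of 0.12 in HSC over the other pools, against -0.27 for all genes, with 1 at least 2-fold higher and 1 lower (background 10.4% and 25.3%). The higher was Pabpc1, which binds poly(A) tails, with 1148 CPM in HSC, against 458 in Dorsal, 424 in Ventral and 275 in Mesenchymal (1.57). Eef1b2 followed at 0.92, Eef1a1 was at 0.08, and Vim, a filament gene with a TOP start in the list, was at -1.44. The 22 initiation factors had a median of 0.02, 37 ribosome biogenesis genes 0.06, 76 mitochondrial ribosomal protein genes -0.08 and 37 proteasome subunits -0.29. Among biogenesis genes, Wdr12 (1.25) and Nop10 (1.24), a part of the box H/ACA particles, were at least 2-fold higher, and Rrn3 (-1.51), an initiation factor of RNA polymerase I, and Bysl (-1.02) were lower. Of growth regulators, Mycn stood at 88.1 CPM in HSC, against 70.6 in Dorsal, 33.8 in Ventral and 6.83 in Mesenchymal, while Myc stood at 12.1, 32.1, 34 and 20.9 in that order.

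Over single cells, the shares ran together, and not for translation genes alone. The ribosomal protein share of a cell had a rho of 0.77 in HSC, against 0.69 in Dorsal, 0.86 in Ventral and 0.82 in Mesenchymal with the share of the elongation and TOP list among the remaining counts, which include Dock10 and Cep97. With mitochondrial ribosomal proteins rho was 0.52, 0.54, 0.64 and 0.64, with proteasome subunits 0.58, 0.53, 0.48 and 0.52, and with cell cycle genes 0.07, 0.19, 0.09 and 0.23 in that order. With the 7 macrophage markers measured of 8, it was -0.08 in Dorsal and -0.38 in Ventral. Their summed share ran up to 0.32% in an HSC cell, 1.52% in a Dorsal cell, 1.27% in a Ventral cell and 0.0038% in a Mesenchymal cell, and C1qa, C1qb and Adgre1 were at 0 in Mesenchymal. Without the cells counted as positive for these markers, the median ribosomal protein share was 6.18% in Dorsal and 6.43% in Ventral, the other way round from 6.26% in Dorsal and 6.07% in Ventral over all cells. The median log2 fold of Dorsal over Ventral was then -0.29.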

How the data were processed

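Single-cell Smart-seq2 data of 335 cells in 4 sorted groups were used. The authors deposited estimated counts for each gene, unscaled, for which the submitters' processing notes name kallisto 0.43.1 and build GRCm38. A second deposited table is on a log2 scale, log2(estimated count / size factor + 1) by the values of both, and served as an alternative. The annotation, gene summing and filters are not given in the sources used here. Entries without a symbol (661 of 14109, 2.96% of counts) were left out, and counts were not rounded.

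Counts were summed per group and scaled to CPM. Log2 folds used CPM + 1 among genes with at least 100 counts in the groups compared. HSC was set against the unweighted mean of the CPM of the other 3 pools. Share limits are exact binomial 95% limits. The fold computation was tested on simulated data. Cells were thinned to 310000 counts, which left out 1 HSC, 1 Dorsal, 9 Ventral and 19 Mesenchymal cells; limits there are Clopper-Pearson. Lengths and coordinates are from GENCODE M21 (GRCm38), taking the coding transcript nearest the gene's median length. Start windows and promoters are from RefSeq (GRCm38.p6), where 55 members matched. Cells were sorted singly, and no doublet caller was run. Python 3 with numpy, pandas and scipy was used.

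Members, lists and comparisons were chosen with earlier results of these data known. Named genes were, per comparison and direction, the 8 with the largest log2 fold that kept its sign in odd-index, even-index and equally weighted cells, the paralogue list, the 6 highest and lowest per length, the 5 most and least correlated, and up to 4 of each other list. Further genes, such as those at the low end of the HSC comparison and Rps4x, were chosen after their values were seen. Some genes that the rule names are not reported here. No p-value was computed, since each group is 1 sample.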

Additional observations from a re-analysis of the deposited data

How the results depend on the processing

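No paired analysis was possible because each group is 1 pool, the cell numbers follow accession order and no result comes from a test. Over 211 alternative values, 173 stayed within an order-statistic 95% interval of the main median, or within 1.5 times the count, and 38 moved. That interval takes the cells or genes as independent and served only to sort the alternatives. No median fold changed sign. With Dock10 and Cep97 left out of totals the median ribosomal protein share was 10.9% in HSC, against 6.96% in Dorsal, 6.62% in Ventral and 6.07% in Mesenchymal. With mitochondrially encoded genes left out it was 9.51% in HSC and 6.61% in Dorsal, and with the wider names 9.57% in HSC. As a share of summed counts it was 10.3% in HSC, 7.21% in Ventral and 5.81% in Mesenchymal.

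The median log2 fold of Dorsal over Ventral (-0.20) was -0.011 with cells weighted equally and -0.011 in the deposited log2 table on a linear scale, -0.093 without the deepest cells, -0.10 without the deepest 5% of cells, -0.079 in odd-index cells, -0.30 in even-index cells, -0.29 without macrophage-marker cells and -0.083 among cells with totals from 500000 to 1000000. That of Ventral over Mesenchymal (0.30) was 0.23 with cells weighted equally, 0.17 without the deepest cells, 0.20 without Dock10 and Cep97, 0.16 in odd-index cells, 0.36 in even-index cells and 0.36 without macrophage-marker cells. The number at least 2-fold lower there, 1 (Rps4l), was 0 with cells weighted equally, without the deepest cells, without the 5% deepest, in the log2 table and among cells with totals from 500000 to 1000000, and 1 gene was higher at 1.5-fold. That of HSC over the other pools (0.69) was 0.79 without Dock10 and Cep97 and 0.54 among cells with totals from 500000 to 1000000. The number at least 2-fold higher in HSC, 3, was 13 without Dock10 and Cep97, 10 with the members left out of totals, 6 in even-index cells, 1 among cells with totals from 500000 to 1000000, 7 without cells over 30% Dock10 and Cep97 and 48 at 1.5-fold. The alternatives by total and by the 30% limit were chosen after seeing the data. The cause of these shifts was not tested. Thinned to 310000 counts, the median cell of each group held all 76 genes with at least 5 counts, but thinning left out the shallowest cells, and detection in those was not tested at that depth.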
